A study of Mus musculus with 42 samples.

Results

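Primary cortex of *Fmr1*KO and WT mouse embryos was compared on 10 expression arrays, 5 KO and 5 WT, out of 42 arrays in the series. These 10 are all the arrays whose labels name cortex taken directly from the brain; the other 32 hold primary hippocampus (12) and cortical and hippocampal cultures (10 each). Every KO and WT embryo was untreated, on a C57BL/6 background and 17 to 18 days post conception, and KO embryos carried the *Fmr1* knockout in all their cells. KO arrays carry the mouse IDs 2037, 2038, 2221, 2620 and 4236, and WT arrays 2236, 2643, 2644, 3569 and NT. The same IDs recur in the other tissues and cultures, and each is read here as a litter, since the labels state that littermates were pooled. An array is therefore a mixture of embryos, of both sexes where the sex-linked genes show it, and of all cell types of the dissected cortex. The spread between arrays is that between pools, and the p values below measure no other variation.

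*Fmr1* encodes FMRP, an RNA-binding protein that associates with ribosomes and holds back the translation of many neuronal mRNAs; its loss in people causes fragile X syndrome. FMRP acts mainly on translation, and mRNA levels measure only a part of what its absence can alter. Interferon signaling, described further down, is the innate antiviral pathway in which secreted interferons bind cell surface receptors, the JAK kinases activate STAT proteins, and STAT proteins with IRF9 switch on a set of antiviral genes.

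The values are log2 signals, 1 per probe set, a group of short oligonucleotides that reports a transcript. Beside 64 control probe sets, 45037 were tested and measure 18194 genes, each represented by the probe set with the highest mean over all 42 arrays. Background was taken as 5.14 log2 from olfactory, vomeronasal and keratin-associated genes, and 11793 genes had a higher group mean above it. The 10 arrays correlated with each other at 0.990 to 0.997 over all probe sets. Markers of cortex were checked first and were far above background in both genotypes. *Neurod6* and *Neurod2*, transcription factors of cortical excitatory neurons, averaged 11.95 and 10.43 in KO and 11.98 and 10.43 in WT. *Bcl11b* of deep-layer neurons averaged 11.88 in KO and 11.86 in WT, and *Tbr1* 9.56 in KO and 9.57 in WT. In pooled tissue, fewer cells of a type and less RNA per cell cannot be told apart, and this applies to every gene below.

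*Fmr1* mRNA fell in all KO pools, and it was the only gene that passed an adjusted p of 0.05. That is 1 gene of 18194, or 0.0055%, by limma with Benjamini-Hochberg adjustment over all probe sets. *Fmr1* (Entrez 14265) lies on the X chromosome of GRCm38.p6, from 68678536 to 68717963. Its main probe set read 8.90, 8.89, 8.94, 8.999 and 8.90 in the KO litters 2037, 2038, 2221, 2620 and 4236, against 10.01, 9.92, 9.86, 9.94 and 9.86 in the WT litters 2236, 2643, 2644, 3569 and NT. The KO arrays were close to each other and well below the lowest WT array. The log2 fold change was -0.99 (standard error 0.05, limma adjusted p = 1.34e-05), a level 1.99-fold lower. The remaining KO signal of 8.93 ± 0.05 (SD, n = 5) was far above background; where this probe set lies relative to the interrupted exon is not given in the sources used here. A second probe set averaged 5.07 ± 0.17 in KO and 5.88 ± 0.35 in WT (SD, n = 5 each), with no overlap and a difference of -0.80. A further one averaged 6.20 ± 0.10 in KO and 6.60 ± 0.21 in WT, with overlap and a difference of -0.39. The exact permutation test (two-sided) gave p = 0.00794, the smallest that 5 against 5 allows, for the main and the second probe set, and p = 0.0159 for the further one.

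Loss of *Fmr1* came with no other difference that passed the adjustment. At an unadjusted p under 0.05 (limma), 435 genes or 2.39% differed, of which 292 (1.6%) were higher and 143 (0.786%) lower in KO. By probe sets the count was 1230 or 2.73%, less than the 5% that this threshold passes by definition when nothing differs. Among genes above background, 182 of 11793 passed (1.54%), 122 higher (1.03%) and 60 lower (0.509%). KO and WT arrays did not overlap for 55 genes higher in KO (0.302%) and 28 lower (0.154%). The median log2 fold change over all genes was 0.01, with 10495 genes of higher mean in KO and 7699 of lower mean. Every gene described from here on is therefore at most a difference at an unadjusted p under 0.05 in limma, and the adjusted p was 1 for each gene named.

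The gene with the smallest p after *Fmr1* was *Dffa*, which encodes the inhibitor that keeps the caspase-activated DNase silent until apoptosis. *Dffa* read 7.71, 7.88, 7.72, 7.85 and 7.91 in KO and 7.31, 7.46, 7.18, 7.48 and 7.14 in WT, in the litter order given above. The lowest KO pool lay above the highest WT pool. The difference was 0.50 (standard error 0.08, limma adjusted p = 1), a level 1.42-fold higher. A second probe set of *Dffa*, at background, differed by 0.04. *Fundc2*, a mitochondrial outer membrane protein that lies on the X chromosome, read 9.22, 9.14, 9.22, 9.36 and 9.26 in KO and 8.95, 8.90, 9.06, 8.85 and 8.92 in WT, again without overlap. Its difference was 0.31, and its other probe sets had the opposite sign, as described with the X chromosome.

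*Ephx1*, the microsomal epoxide hydrolase that detoxifies reactive epoxides, was the lower gene with the smallest p after *Fmr1*. It read 5.01, 4.60, 5.02, 4.60 and 4.71 in KO and 5.28, 5.16, 5.39, 5.45 and 5.35 in WT, a difference of -0.54 (standard error 0.10). The KO mean was below the background of 5.14 and the WT mean of 5.32 just above it, so part of this difference was measured at background. *Igtp*, an interferon-induced GTPase, read 5.34, 5.36, 5.44, 5.34 and 5.44 in KO and 6.01, 5.52, 5.54, 5.79 and 5.83 in WT, a difference of -0.35 (standard error 0.09). Its KO pools were nearly equal, its WT pools were more spread, and the groups did not overlap.

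**Figure D1:**
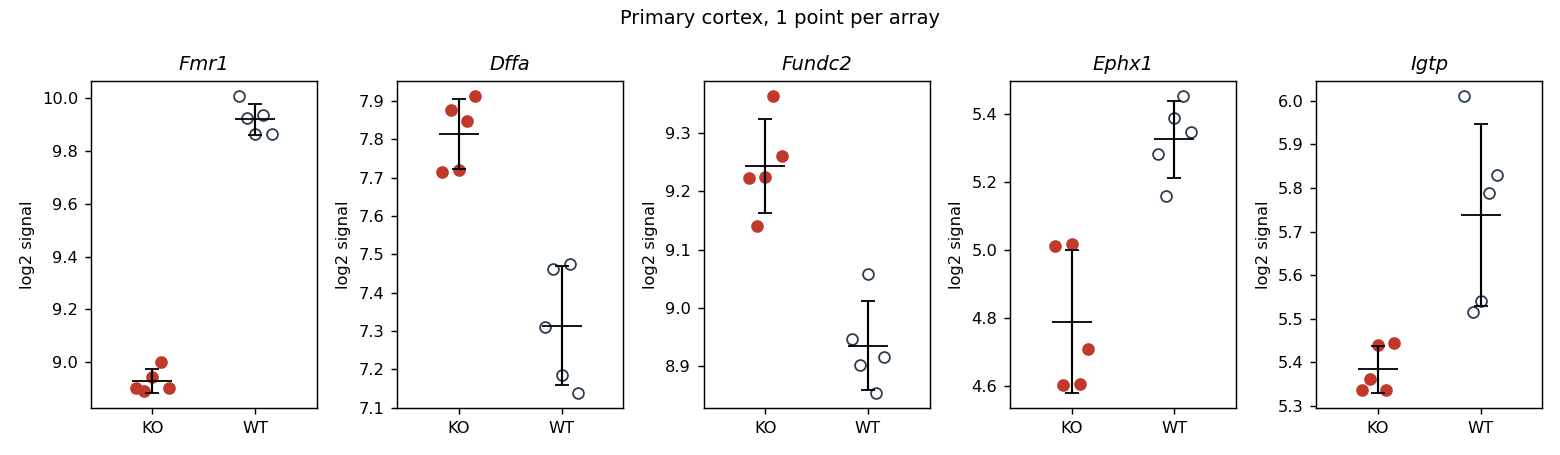
Log2 signal (vertical axis) of *Fmr1*, *Dffa*, *Fundc2*, *Ephx1* and *Igtp* in the 5 KO (filled) and 5 WT (open) primary cortex arrays, 1 point per array, with the mean and SD as bars; each panel has its own axis, which does not start at 0. The genotypes do not overlap in any panel, and the distance is largest for *Fmr1* (-0.99) and far smaller for *Igtp* (-0.35).

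The plot of these 5 genes by array shows how the separation differs among them. For *Fmr1* the gap between the groups is far wider than the range of either, while for *Dffa*, *Fundc2*, *Ephx1* and *Igtp* the gap between the nearest KO and WT arrays is narrower than the range of the WT arrays. The other 8 leading higher genes differed by 0.20 to 0.28 in log2. They were *Pidd1*, a death domain protein induced by p53 (0.27), the interleukin 3 receptor chain *Il3ra* (0.24), the skin barrier gene *Lce1h* (0.25), the cytochrome P450 *Cyp2b10* (0.25), the ADP-ribosyltransferase *Art1* (0.22), the Ras GTPase-activating protein *Rasal1* (0.26), the growth factor *Fgf4* (0.20) and the secreted protein gene *Ccdc3* (0.28). *Il3ra*, *Lce1h*, *Fgf4* and *Ccdc3* did not overlap between genotypes, and the KO means of *Il3ra* (5.23) and *Fgf4* (5.24) were close to background, with WT means under it.

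The other 7 leading lower genes differed by -0.16 to -0.39. *Eif2ak2*, the kinase PKR that halts translation when it meets double-stranded RNA, was lower by 0.39 and is described with the interferon genes. *Zfp202*, a zinc finger repressor, read 7.39, 7.30, 7.78, 7.70 and 7.55 in KO and 7.72, 7.72, 7.93, 7.94 and 8.16 in WT (-0.35), with overlap. *Emb*, which encodes the adhesion protein embigin, differed by -0.33 and *Rimbp3* by -0.30. The carboxypeptidase-like *Cpxm1* (-0.21), *Mospd3* (-0.16) and *Laptm5* (-0.16), a lysosomal protein of blood-derived cells, differed less. *Emb*, *Mospd3* and *Laptm5* did not overlap between genotypes on the probe sets used. *Laptm5* passed an unadjusted p of 0.05 (limma) on 1 of 5 probe sets, 3 of them above background. *Emb* passed on 1 of 3, 2 of them above background. All 10 higher and 9 lower leading genes kept an unadjusted p under 0.05 when any 1 of the 10 arrays was left out.

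Genes that interferon induces were measured lower in KO more often than higher. Of 59 measured effectors, 12 were lower and 0 higher at an unadjusted p under 0.05 (limma), which is 20.3% against 0.786% of all genes lower. The median of the list was -0.09, against 0.01 over all genes, and 46 of the 59 had a lower mean in KO. Only 28 of the 59 were above background, 7 of the 12 lower ones among them. The list was chosen with results of these arrays known, so its count describes these 10 pools and is not independent evidence of a direction.

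Upstream of the effectors, the receptors differed little. The type I receptor chains *Ifnar1* and *Ifnar2* differed by -0.05 and 0.04, and the type II chains *Ifngr1* and *Ifngr2* by 0.10 and -0.14. None of these 4 passed an unadjusted p of 0.05 (limma), nor did the kinases *Jak1* (-0.04) and *Tyk2* (0.11) or *Stat2* (0.02). Of 18 receptors and transducers, 2 were lower and 0 higher, or 11.1% against 0.786% of all genes lower. *Irf9*, which gives the STAT complex its DNA binding specificity, read 6.11, 6.27, 5.79, 6.08 and 6.38 in KO and 6.77, 6.58, 5.95, 6.59 and 6.62 in WT (-0.38). Of the WT pools, 4 were above every KO pool and litter 2644 lay within the KO range. *Usp18*, the protease that removes ISG15 and restrains receptor signaling, read 4.14, 4.18, 4.30, 4.36 and 4.54 in KO and 6.35, 4.08, 4.29, 5.26 and 5.51 in WT (-0.80). It was above background only in the WT litters 2236, 3569 and NT. The count of 2 became 0 without KO 2221, KO 2620, WT 2236, WT 3569 or WT NT.

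The effectors fall into families. Among the immunity-related GTPases, which attack the vacuoles of intracellular pathogens, *Igtp*, *Irgm1* (-0.42) and *Irgm2* (-0.15) were lower. *Irgm1* read 4.51, 4.66, 4.70, 4.44 and 4.57 in KO and 5.48, 4.78, 4.73, 5.14 and 4.84 in WT, without overlap, although most of its values are at background. Among genes that sense or bind viral RNA, *Eif2ak2* read 4.77, 4.96, 4.84, 4.96 and 5.01 in KO and 5.48, 5.25, 4.91, 5.37 and 5.45 in WT (-0.39). *Ifit1* (-0.37), *Ifit3* (-0.30) and *Oasl2* (-0.37) were lower too, all with both group means under background. The sensors *Ddx58* (-0.05) and *Ifih1* (-0.22), which detect viral RNA in the cytoplasm, did not pass.

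Members with other roles had the largest measured differences. *Ifitm3*, a membrane protein that blocks the entry of viruses, read 6.14, 5.90, 5.94, 5.73 and 6.04 in KO and 7.36, 5.82, 6.18, 6.77 and 6.93 in WT (-0.66). *Parp12*, an ADP-ribosyltransferase, read 5.57, 4.82, 5.20, 5.45 and 4.90 in KO and 6.34, 5.39, 5.57, 5.55 and 6.07 in WT (-0.60). For both genes WT 2236 was the highest pool and the lowest WT pool fell within the KO range. *Trim25*, a ubiquitin ligase of the RIG-I pathway, differed by -0.45, *Parp9* by -0.31 and *Rtp4* by -0.51. *Rtp4* has a second probe set, at background, that was higher in KO (0.13). It also passed an unadjusted p of 0.05 (limma), with a smaller p than the probe set used. *Rtp4* as a gene therefore has no single direction in these arrays. Of the 12 effectors, *Trim25*, *Parp9*, *Rtp4* and *Irgm2* lost an unadjusted p under 0.05 in at least 1 fit that left out an array.

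Of 12 MHC class I genes measured, which present antigen, 0 passed an unadjusted p of 0.05 in either direction (limma), with a median of -0.04. Over all genes 2.39% passed, so a list this short holds few such genes or none at that share. *B2m*, the shared light chain of class I molecules, averaged 7.99 ± 0.09 in KO and 8.21 ± 0.29 in WT (SD, n = 5 each), a difference of -0.22 that did not pass.

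Interferon-induced genes are often recognised by a short promoter element, and it is shown here for the 5 lower effectors that carry it. The choice of the list did not use it, but these 5 were picked for carrying it. Other lower effectors had no match, as given below. The element searched was GAAANNGAAA, or TTTCNNTTTC on the opposite strand, in the 250 bases before the transcript start that RefSeq gives on GRCm38.p6, overlapping matches included. Capitals mark the matches, and 25 bases on each side are printed, 5′ to 3′ on the strand of the gene, fewer where the window ends.
Irgm1 (chr11:48871421-48871475, minus strand): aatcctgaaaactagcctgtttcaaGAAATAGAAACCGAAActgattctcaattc
Igtp (chr11:58199497-58199555, plus strand): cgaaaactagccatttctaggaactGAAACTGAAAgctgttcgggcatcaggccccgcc
Irgm2 (chr11:58214888-58214947, plus strand): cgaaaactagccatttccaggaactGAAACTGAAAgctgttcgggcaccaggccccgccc
Ifit3 (chr19:34583348-34583441, plus strand): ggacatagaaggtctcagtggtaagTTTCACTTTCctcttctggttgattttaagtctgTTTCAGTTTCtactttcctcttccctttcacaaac
Ifit1 (chr19:34640760-34640838, plus strand): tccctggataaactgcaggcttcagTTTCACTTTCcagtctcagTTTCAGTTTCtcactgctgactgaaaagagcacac

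*Igtp* and *Irgm2*, neighbours on chromosome 11, carry the same match, GAAACTGAAA, and *Ifit1* and *Ifit3*, neighbours on chromosome 19, carry the same pair of matches. In *Irgm1* both matches overlap. The element was found in 15 of 44 interferon effectors with a promoter in the table (34.1%), against 936 of 27025 genes in the table (3.46%) and 452 of 14368 measured genes (3.15%). Of the effectors lower in KO, 5 of 10 held it (50%), and of those not lower, 10 of 34 (29.4%). No match was found in this window for *Eif2ak2*, *Ifitm3*, *Oasl2*, *Parp12*, *Trim25* or *Irf9*. A match is a string of letters and was not measured as a binding site here.

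Interferon effectors were high in some WT litters and not in others. The mean log2 signal of the 59 effectors was 5.07, 5.05, 5.05, 5.04 and 4.999 in the KO pools, close to each other. In the WT pools it was 5.36 in litter 2236, 5.22 in NT and 5.15 in 3569, and 5.04 and 5.07 in litters 2643 and 2644, within or close to the KO range. Without WT 2236, or without KO 2037, 8 effectors were lower; without WT 2643 the count was 16. When only probe sets above background were fitted, 5 remained lower at an unadjusted p under 0.05.

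**Figure D2:**
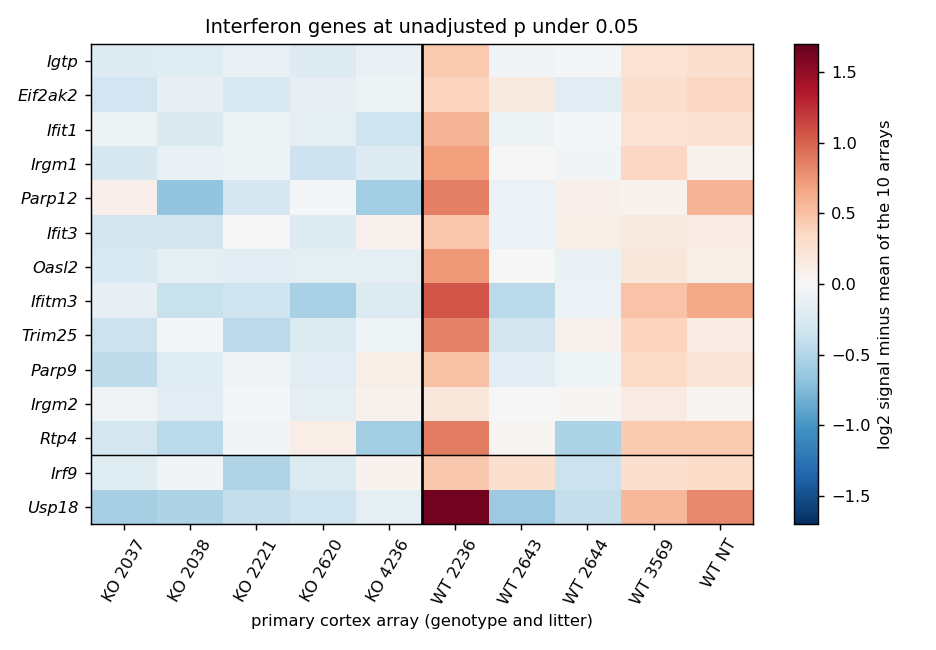
Log2 signal minus the mean of the 10 primary cortex arrays (colour, red above and blue below the mean) for the 12 interferon effectors (above the line) and 2 transducers (below it) at unadjusted p under 0.05 (limma), with KO arrays at the left and WT arrays at the right. WT 2236, 3569 and NT are above the mean in all 14 genes, whereas WT 2643 and 2644 are below it in most.

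The heat map of these 14 genes shows the same division: the KO arrays are mostly below the mean, and the WT arrays differ among themselves. The same litters could be followed in primary hippocampus, by their mouse IDs. There the effectors averaged 5.06 to 5.15 in 6 KO pools, against 5.30, 5.29 and 5.28 in the WT litters 2236, NT and 3569 and 5.12 to 5.16 in the other 3 WT pools. The WT litters that were high in cortex were the ones that were high in hippocampus. *Usp18* in hippocampus read 4.02 to 4.32 in KO and 5.86, 5.57 and 5.16 in the WT litters 2236, NT and 3569. Both tissues carry the same litter IDs, so the second is no independent replicate.

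In cortical cultures, neurons grown for 14 days in vitro, the genotypes overlapped. The effectors averaged 5.18 to 5.49 in KO cultures and 5.15 to 5.46 in WT cultures, and the highest culture was that of KO litter 2037, whose cortex was at 5.07. WT 2236 was the highest WT cortical culture (5.46), as it was the highest WT pool in both tissues, while WT 3569 and NT were at 5.26 and 5.20. Hippocampal cultures of the same litters had another order. There WT 2236 was the lowest culture (5.105) and WT 2644, low in cortex, was the highest (5.59). Microglia, the resident immune cells, were examined beside these values. Of 24 microglial genes, 1 was higher and 2 lower in KO at an unadjusted p under 0.05 (limma), or 12.5% against 2.39% of all genes, and their mean ran from 5.25 to 5.40 in KO and from 5.20 to 5.41 in WT cortex. *Csf1r*, the receptor that microglia depend on, averaged 7.93 in KO and 8.04 in WT, and *C1qa* 6.35 in KO and 6.56 in WT. WT 2236, highest for interferon effectors, was highest for this list too (5.41), and KO 2221 (5.40) was next. WT 2644, low for interferon effectors, was at 5.38, above NT (5.36) and 3569 (5.31), which were high for them. The part of microglia in the interferon difference was not tested.

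**Figure D3:**
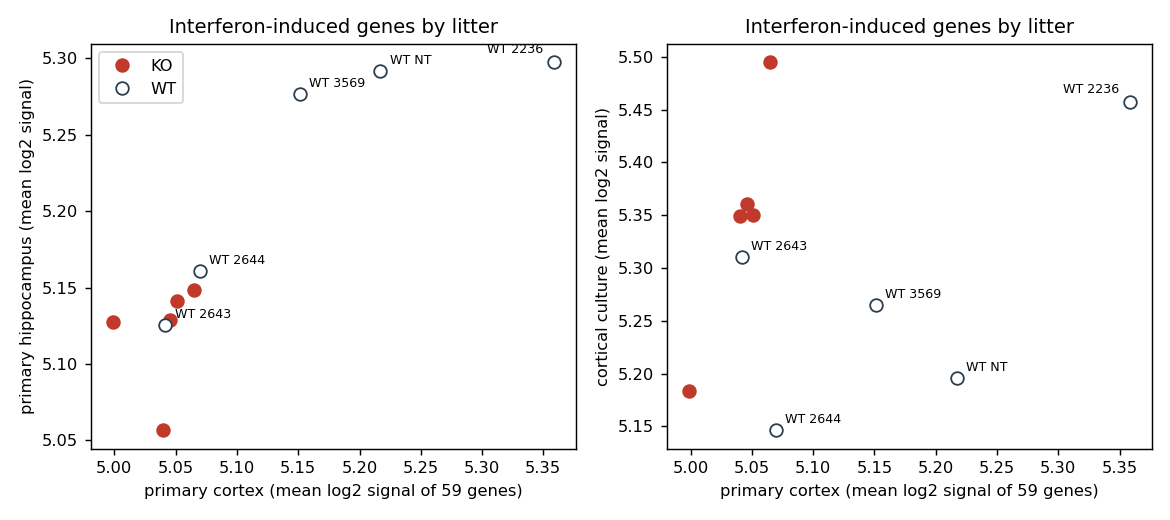
Mean log2 signal of the 59 interferon effectors in primary cortex (horizontal axes) against primary hippocampus (left, vertical axis) and cortical culture (right, vertical axis), 1 point per litter, KO filled and WT open with the WT litters named; axes do not start at 0. WT 2236, NT and 3569 stand at 5.28 to 5.30 in hippocampus and at the right in cortex, while in culture WT 2236 is high and WT NT and 3569 are not.

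The X chromosome around *Fmr1* held probe sets that differed in opposite directions for the same gene. Of 40 genes within 5 Mb of *Fmr1*, itself left out, 2 were higher and 0 lower at an unadjusted p under 0.05 (limma), or 5%. Of 150 genes within 20 Mb, 7 were higher and 3 lower (6.67%), against 2.79% on the rest of the X chromosome (466 genes) and 2.33% on the autosomes. From a hand-picked list of 28 measured neighbours, 1 was higher. Only 4 of the 10 genes called within 20 Mb were above background: *Cd99l2*, *Fundc2*, *Brcc3* and *Pls3*. The second gene within 5 Mb was *3830417A13Rik* (0.18), under background in both genotypes.

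*Cd99l2*, an adhesion molecule of the CD99 family 2.76 Mb from *Fmr1*, has 4 probe sets. The one with the highest signal read 9.41, 9.27, 9.14, 9.30 and 9.35 in KO and 8.94, 8.94, 9.15, 9.10 and 9.15 in WT (0.23), with slight overlap. The other 3 were lower in KO (-0.24, -0.52 and -0.48), each without overlap and each with an unadjusted p under 0.05. The second of them averaged 7.94 ± 0.17 in KO and 8.45 ± 0.16 in WT (SD, n = 5 each). *Cd99l2* as a gene therefore has no single direction in these arrays. The same 4 signs were seen in primary hippocampus (0.17, -0.30, -0.81 and -0.71) and in cortical culture (0.24, -0.53, -0.83 and -0.59), from the same litters.

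*Fundc2*, 6.69 Mb from *Fmr1*, was higher by 0.31 on its brightest probe set but averaged 6.62 ± 0.45 in KO and 7.16 ± 0.18 in WT (SD, n = 5 each) on another, a difference of -0.54. A further probe set differed by -0.21 and did not pass. The neighbour *Brcc3*, a deubiquitinating enzyme, was higher by 0.14. It passed an unadjusted p of 0.05 (limma) on 1 of its 5 probe sets, 4 of which were above background. *Pls3*, the actin-bundling protein plastin 3 at 7.13 Mb, read 8.84, 8.59, 8.92, 8.61 and 8.58 in KO and 8.94, 8.57, 9.25, 9.26 and 9.15 in WT (-0.32), with overlap. Among 9009 genes with several probe sets, 12 (0.133%) had probe sets past an unadjusted p of 0.05 in both directions, and 2 of the 61 such genes within 20 Mb of *Fmr1* (3.28%) did, *Cd99l2* and *Fundc2*. Which parts of a transcript the probe sets cover was not examined.

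**Figure D4:**
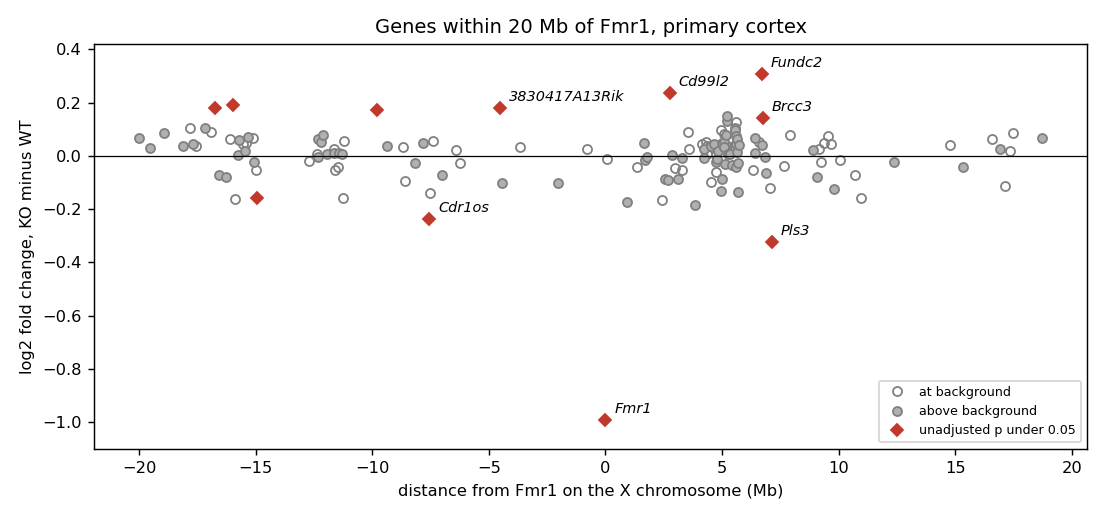
Log2 fold change, KO minus WT in primary cortex (vertical axis), of the genes within 20 Mb of *Fmr1* against their distance from it in Mb (horizontal axis), 1 point per gene on its brightest probe set; diamonds passed an unadjusted p of 0.05 (limma), open circles are at background. *Fmr1* lies at -0.99 and all other genes between -0.32 and 0.31, with *Fundc2*, *Brcc3* and *Pls3* close together near 7 Mb.

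The map of the interval shows that the called genes are scattered, apart from *Fundc2*, *Brcc3* and *Pls3*. *Aff2*, the gene of the neighbouring fragile site FRAXE, differed by -0.17 (KO 5.79, WT 5.96) and did not pass, nor did the lysosomal enzyme gene *Ids* (0.05).

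The paralogs of *Fmr1*, its partner proteins and the mGluR5 pathway held no gene at an unadjusted p under 0.05 (limma). Over all genes the share was 2.39%, at which lists of this length hold few such genes or none. The paralogs *Fxr1* and *Fxr2*, RNA-binding proteins of the same family, differed by 0.09 and 0.01. Of 20 proteins that bind FMRP or act with it in translation, 0 passed an unadjusted p of 0.05 (limma), with a median of -0.01. The same was true of 37 genes of mGluR5 and ERK signaling, the pathway whose protein synthesis FMRP is known to restrain: 0 passed and the median was 0.00. *Grm5*, the receptor itself, ranged from 8.55 to 9.34 in KO and from 8.27 to 9.44 in WT, a difference of -0.14. *Arc*, an activity-induced mRNA that FMRP binds, was under background in both.

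Of 47 synaptic genes, 0 were higher and 1 was lower, *Dlgap2*, a scaffold of the postsynaptic density. That is 2.13%, close to the 2.39% of all genes. It read 5.60, 5.27, 5.04, 5.16 and 5.57 in KO and 5.60, 5.71, 5.29, 5.82 and 5.88 in WT (-0.33). The list had a median of -0.04 and 32 of 47 genes with a lower mean in KO, and the scaffold *Dlg4* (PSD-95) and *Shank3* differed by 0.02 and -0.05. At this age most synapses have yet to form, so the synaptic list is measured mostly in immature neurons.

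Of the 819 measured mRNAs among FMRP targets named by the study, 3 were higher and 3 lower, 0.733% against 2.39% of all genes and 1.54% of genes above background. They were *Pald1* (0.16), *Lrp2* (0.23) and *Ddx47* (0.13) on the higher side and *Map3k4* (-0.17), *Cables1* (-0.20) and *Bmp2* (-0.23) on the lower. The median of the targets was 0.01, against 0.01 over all genes. *Map3k4*, a kinase of stress signaling, was the only 1 of the 6 without overlap and read 8.44, 8.30, 8.41, 8.44 and 8.40 in KO and 8.56, 8.48, 8.69, 8.54 and 8.56 in WT. Of 574 autism genes of the SFARI list, 3 were higher and 3 lower (1.05%): *Fmr1* itself, *Dlgap2* and the carnitine synthesis gene *Tmlhe* (-0.14) on the lower side, and *Cd99l2*, the cystathionine synthase *Cbs* (0.17) and *Lrp2* on the higher.

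Genes of arachidonic acid metabolism, which release this lipid from membranes and turn it into signaling molecules, held a few higher members. Of 45 measured, 6 were higher and 1 lower at an unadjusted p under 0.05 (limma), 15.6% against 2.39% of all genes, yet the median was only 0.03. The higher ones were *Cyp2b10* (0.25), *Cyp2c54* (0.19), *Cyp4f13* (0.27), *Ggt5* (0.23), *Alox12b* (0.17) and *Pla2g10* (0.16), and *Cyp2c55* was lower (-0.20). *Ggt5*, which cleaves leukotriene C4, read 5.71, 5.82, 5.49, 5.59 and 5.64 in KO and 5.41, 5.39, 5.27, 5.56 and 5.48 in WT, and *Pla2g10*, a secreted phospholipase, averaged 5.72 in KO and 5.55 in WT. Only *Cyp2b10*, *Ggt5* and *Pla2g10* were above background, and the other 4 had both group means under it. This list too was chosen with results of these arrays known.

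Of 41 apoptosis genes, 2 were higher and 0 lower, *Dffa* and *Casp9*, or 4.88% against 2.39% of all genes. *Casp9*, the initiator caspase of the mitochondrial pathway, read 7.18, 7.14, 7.07, 7.14 and 6.98 in KO and 7.01, 6.99, 6.97, 6.77 and 7.04 in WT (0.15), with overlap, and passed in 5 of the 10 fits that left out an array. *Dffb*, the DNase that *Dffa* restrains, differed by 0.06 and did not pass. Of 92 cytokines and their receptors, 3 were higher and 1 lower: *Il3ra*, the eosinophil chemokine *Ccl11* (0.20) and the chemokine receptor *Ccr2* (0.14), each without overlap, and *Il7* (-0.21). That is 4.35% of the list against 2.39% of all genes, and 0.302% of all genes were higher without overlap. *Ccl11* and *Il7* were under background in both genotypes.

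Core cell programs held almost no call. Over all genes the share called was 2.39%, at which lists of this length hold few calls or none. Of 43 cytosolic ribosomal protein genes, 63 genes of oxidative phosphorylation, 29 of the stress response and 27 immediate early genes, 0 passed an unadjusted p of 0.05 in either direction (limma), with medians of 0.02, 0.02, 0.03 and 0.01. Of 24 genes of hypoxia and glycolysis, only *Pdk1*, the kinase that diverts pyruvate from mitochondria, was lower (-0.15), or 4.17% of the list.

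Most cell type lists held no call. Over all genes 2.39% were called, and lists this short hold few calls or none at that share. None of the markers of glutamatergic cortical neurons (28 measured), progenitors (24), interneurons (23), Cajal-Retzius cells (11), astrocytes (19), oligodendrocyte lineage (18), endothelium (22), meninges and fibroblasts (23) or choroid plexus (16) passed an unadjusted p of 0.05 (limma). Nor did those of erythroid cells (13), striatum (16), thalamus (15), hippocampus and cortical hem (18) or telencephalon identity (8), or the 46 cell cycle genes. Medians of these lists ran from -0.04 (astrocytes) to 0.06 (cell cycle). Of 16 genes of pericytes and smooth muscle, the myosin light chain *Myl9* was higher (0.18; 6.25% of the list), and of 20 genes of lymphoid and other blood leukocytes, *Ms4a1* and *Elane* were higher (10% against 2.39% of all genes), both under background. Of these 20 genes 3 were above background and 15 had a higher mean in KO, and their mean signal was 4.370 to 4.461 in KO and 4.314 to 4.365 in WT, without overlap. The microglial calls were the lysozyme *Lyz2*, which averaged 5.39 ± 0.14 in KO and 5.12 ± 0.15 in WT (SD, n = 5 each; 0.27), *Laptm5* (-0.16) and the integrin *Itgam* (-0.12), under background.

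Pools of a genotype differed from each other more than the genotypes did. Over 11705 genes whose mean was above background, the first principal component held 38.7% of the variance and the second 22.7%. On the first, the KO pools scored -2.35, -9.84, 11.5, 13.4 and -12.8 and the WT pools 10.2, 4.16, 9.35, -20.1 and -3.61. The genotypes were mixed along it. The KO minus WT difference was -0.02 on the first component (exact permutation test, two-sided, p = 1) and 3.22 on the second (p = 0.595 by the same exact test; adjusted p = 1 for both).

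Among the genes that varied widely between pools were known markers of blood, other brain regions and sex. The mean of the cell cycle genes, markers of proliferation, varied less. The embryonic globin *Hbb-y* read 4.93, 6.10, 7.34, 7.83 and 4.35 in KO and 7.69, 8.26, 7.07, 3.72 and 4.39 in WT. The mean of 46 cell cycle genes followed a similar order, at 8.31, 8.33, 8.81, 8.83 and 8.33 in KO and 8.65, 8.71, 8.67, 8.09 and 8.27 in WT. KO 2221 and 2620 and WT 2236, 2643 and 2644 were high in both measures, and WT 3569 was lowest in both. Other erythroid genes were not all in this order. *Alas2* was lowest in KO 2221 (6.43) and highest in KO 2038 (7.57). *Hba-x* was lowest in WT 3569 (4.97) and highest in KO 2620 (5.65). The blood content of the pools was not measured.

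*Isl1*, a transcription factor of striatal precursors and not of cortex, read 5.97, 4.07, 6.72, 8.42 and 3.98 in KO and 7.21, 4.13, 7.48, 3.99 and 4.32 in WT. The neuropeptide precursors *Nts* (6.68 to 10.70 in KO, 5.52 to 10.43 in WT) and *Tac1* (5.60 to 8.30 in KO, 5.86 to 7.999 in WT) varied as widely within each genotype. *Ttr*, the thyroid hormone carrier made by choroid plexus, was at 4.08 to 7.07 in KO and at 3.94 to 4.38 in WT 2236, 2643 and 3569, but at 10.43 and 12.02 in WT 2644 and NT. The mean of 16 choroid plexus genes was highest in the same pools, WT NT (5.22) and WT 2644 (5.03), against at most 4.80 in KO. *Xist*, the RNA of the inactive X chromosome, ran from 11.10 to 12.16 in KO and from 9.43 in WT 2644 to 12.12 in WT 2643, and the Y-linked *Eif2s3y* from 6.49 to 8.16 in KO and from 6.88 to 8.35 in WT. Both genes were above background in every pool, while the Y-linked *Uty* was close to it in KO 2038 (5.17). The share of each sex in a pool was not measured.

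**Figure D5:**
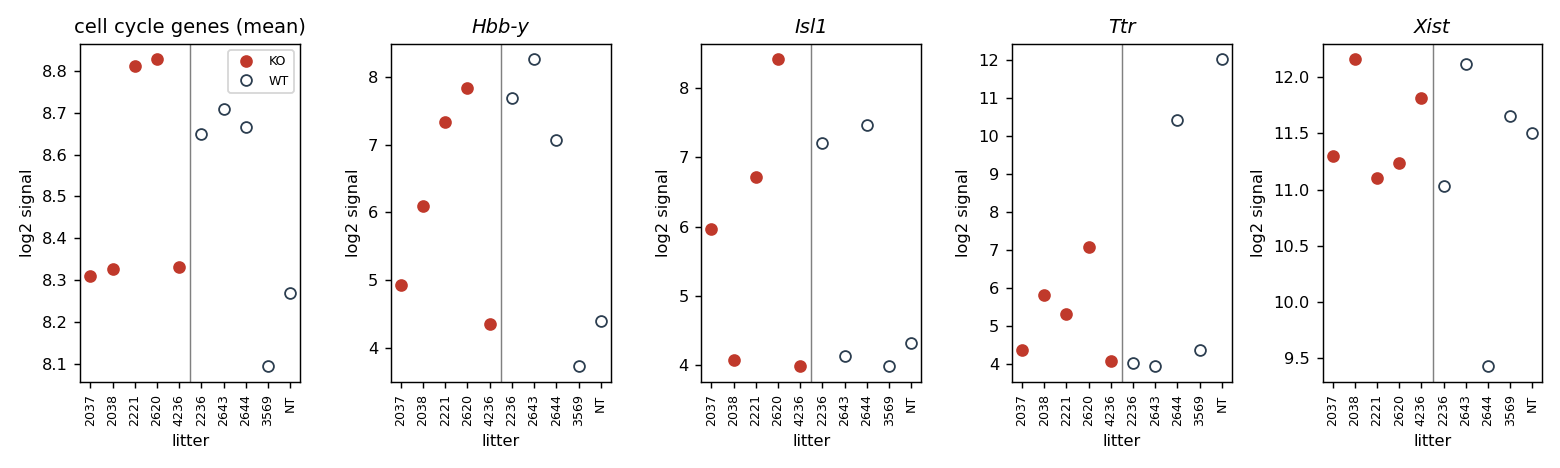
Log2 signal (vertical axes, each with its own range) of the mean of 46 cell cycle genes, *Hbb-y*, *Isl1*, *Ttr* and *Xist* in the 10 primary cortex arrays, 1 point per litter, KO filled at the left and WT open at the right of the line. For the cell cycle mean, *Hbb-y* and *Isl1* both genotypes hold high and low pools, whereas the high *Ttr* values of 10.43 and 12.02 and the low *Xist* value of 9.43 are all WT.

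The plot by litter shows that none of these measures divides KO from WT. The 3 WT litters with high interferon genes (2236, NT and 3569) had cell cycle means of 8.65, 8.27 and 8.09 and *Hbb-y* at 7.69, 4.39 and 3.72, and so were neither all high nor all low. With the cell cycle mean as a covariate in the fit, 11 interferon effectors were lower at an unadjusted p under 0.05 (limma), and with the sex-linked score added, 9 were. These covariates were chosen after the data were seen. The part of pool composition in the interferon difference was not tested.

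*Fmr1* was lower to a similar extent in the other tissue and in the culture of the same litters. Its difference was -0.99 in cortex against -0.93 in primary hippocampus and -0.90 in cortical culture. The difference between the effects was -0.06 (cortex minus hippocampus) and -0.10 (cortex minus culture), and neither passed an unadjusted p of 0.05 (limma). Over all genes, 0 differed in KO effect between cortex and hippocampus at an adjusted p under 0.05 (limma), and 326 (1.79%) did at an unadjusted p. With the litter as a block, over the 10 litters with both tissues, the unadjusted count was 600 and the adjusted one 0. Between cortex and cortical culture 0 genes passed the adjustment and 717 (3.94%) the unadjusted threshold.

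*Dffa* was higher in KO hippocampus than in WT hippocampus by 0.83, without overlap (7.45 to 7.98 in 6 KO pools, 6.76 to 7.12 in 6 WT pools), and in KO cortical culture by 0.36 (7.90 to 8.17 in KO, 7.44 to 7.96 in WT). The KO effect in cortex minus that in hippocampus was -0.33, which passed an unadjusted p of 0.05 (limma) and not the adjustment. *Igtp* was lower in KO hippocampus by 0.41, again without overlap, but its difference was 0.16 in cortical culture. For the interferon effectors the signs in cortical culture were mixed: *Parp12* differed by 0.43 and *Ifitm3* by 0.39 there. The difference of effects between cortex and cortical culture was -1.02 for *Parp12*, past an unadjusted p of 0.05 (limma), and -1.05 for *Ifitm3*, which did not pass. Hippocampal cultures overlapped: *Ifitm3* read 6.31 to 8.34 in KO and 7.24 to 9.53 in WT. *Parp12* read 5.61 to 6.13 in KO and 5.26 to 6.53 in WT there. *Ephx1* differed by -0.32 in hippocampus and by 0.19 in cortical culture, where it was at 9.91 to 11.19 in KO and 9.69 to 11.35 in WT, far above its level in tissue. In hippocampal culture *Ephx1* differed by -0.56, with overlap. Of the leading genes other than *Fmr1*, 8 had the same sign in cortex, hippocampus and cortical culture. *Dffa*, *Fundc2*, *Pidd1*, *Il3ra* and *Rasal1* were positive, *Pidd1* by only 0.01 in cortical culture, and *Emb*, *Rimbp3* and *Laptm5* negative. Hippocampal culture was not part of this count. There *Rasal1* (-0.19) and *Il3ra* (-0.02) were negative, *Rimbp3* read 4.51 to 4.79 in KO and 4.39 to 4.60 in WT, and the others kept their sign. In cortex, hippocampus and cortical culture, in that order, the differences were 0.24, 0.09 and 0.07 for *Il3ra* and -0.33, -0.07 and -0.23 for *Emb*. The 3 comparisons use the same litters, so a shared sign is not an independent repeat. The share of all genes with a shared sign is not given here, so the count of 8 is not set against it.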

How the data were processed

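The authors hybridized RNA from each sample to Affymetrix Mouse Genome arrays and deposited log2 values, made with RMA in the Affy package (background correction, quantile normalization, 1 summary value for each probe set). The set of arrays normalized jointly is not given in the sources used here. The deposited values were used unchanged. Arrays give no counts, so their number limits the precision.

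The 10 primary cortex arrays were fitted alone with limma 3.58.1 in R 4.3.3 (lmFit on the group means, eBayes with defaults, 8 residual and 3.50 prior degrees of freedom), with p values adjusted by Benjamini and Hochberg over 45037 probe sets. The unadjusted threshold of 0.05 follows the study. Of these probe sets, 34945 carry 1 gene, 932 several and 9160 none; only the first were counted as genes. Background is the 95th percentile of 121 probe sets of olfactory, vomeronasal and keratin-associated genes. Differences of KO effects were fitted on 4 group means. Gene positions and promoters are those of RefSeq on GRCm38.p6, and 34741 probe sets have a position.

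The genes named are *Fmr1*, the 10 higher and 10 lower genes above background with the smallest p (*Fmr1* among the lower), the members of each list at an unadjusted p under 0.05 with the defining members of its role, and the called genes near *Fmr1*. Genes that vary most between pools were chosen after their values were seen. The members and lists were chosen with earlier results of these data known. FMRP targets and SFARI genes are the study's lists, matched by symbol (819 of 939 and 574 of 705).

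The study's methods state that its KO and WT replicates were processed as pairs on the same day, but the labels do not name these pairs, so the p values take no account of them. Mouse IDs recur across systems. After removal of group means, arrays were correlated over probe sets above background, and the best match was sought among arrays of the same genotype. Each of the 10 litters correlated best with its own array in hippocampus (r 0.311 to 0.592), and 2 of 10 did in culture (r -0.145 to 0.293). The litter was therefore used as a block in an alternative fit. Principal components and exact permutation tests used Python 3.11.15 with NumPy 2.4.6 and SciPy 1.17.1, and figures Matplotlib 3.10.9. The fit was tested on simulated data. Alternatives covered the arrays fitted, variance model, array weights, normalization, background filter, probe set per gene, adjustment, sex score, litter as a block and each array left out.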

Additional observations from a re-analysis of the deposited data

Results flagged for a closer look

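For 13 comparisons among the leading genes, the KO effect in primary cortex differed from that in another system at an unadjusted p under 0.05 (limma interaction), and none passed the adjustment. The leading genes were chosen by their p in these same cortex arrays, which favours a larger effect in cortex than in another system. The 13 are therefore no independent evidence of a difference. Over all genes, 1.79% differed from hippocampus and 3.94% from cortical culture at this threshold. Against primary hippocampus, the KO minus WT difference in cortex was smaller for *Dffa* (-0.33) and larger for *Cyp2b10* (0.33), while for *Mospd3* (-0.20) and *Zfp202* (-0.32) it was negative in cortex and near 0 in hippocampus. With the litter as a block, *Mospd3* no longer passed against hippocampus, and *Lce1h* and *Rasal1* did; against culture *Igtp* did as well. Against cortical culture, the effect was higher in cortex for *Pidd1* (0.26), *Lce1h* (0.25), *Cyp2b10* (0.44) and *Art1* (0.29). It was lower in cortex for *Ephx1* (-0.72), *Eif2ak2* (-0.44), *Cpxm1* (-0.31), *Mospd3* (-0.22) and *Zfp202* (-0.54).

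A single array stood apart from the other 4 of its group in 3 genes. *Oasl2* was at 3.29 in KO 2037, with the others at 3.37 to 3.40, all under background. *Irf9* was at 5.95 in WT 2644, with the others at 6.58 to 6.77. *Casp9* was at 6.77 in WT 3569, with the others at 6.97 to 7.04. Chance puts about 1 in 20 groups past this limit.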

How the results depend on the processing

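*Fmr1* was the only gene at an adjusted p under 0.05 (limma) in all alternatives run. The 435 genes at an unadjusted p became 680 with cell cycle and sex scores as covariates (chosen after the data were seen), 155 with only probe sets above background, and 884 with the probe set of smallest p per gene (58.6% higher, against 67.1%), and ran from 338 to 614 when 1 array was left out, 614 without WT 2643 (55.5% higher). With the smallest p, *Rtp4* turned to 0.13 and *Cd99l2* to -0.52; each has a second probe set of the opposite sign. With the litter as a replicate block, the 326 genes that differed in KO effect from hippocampus became 600 (266 to 357 without 1 litter and no block) and the 717 that differed from culture 727 (481 to 1325; 1325 without KO 4236 and 1176 without WT 2236); the block changed no adjusted call. With each array centred, 660 differed from culture, 43.3% of them higher, against 66.5%. The first component differed by -5.27 to 3.42 without 1 array. Of 66 named genes, 27 lost the unadjusted threshold when all 42 arrays were fitted, and 9 to 22 when 1 array was left out, most without WT 2236. The interferon count was 8 to 16 without 1 array. Signals near 5.14 limit what can be measured: 5 of the 12 lower interferon effectors lay under it.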
